A study of Caenorhabditis elegans with 2 samples.

Results

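The aminoacyl-tRNA synthetase genes of Caenorhabditis elegans were examined in a chromatin immunoprecipitation sequencing (ChIP-seq) experiment on the transcription factor AHA-1. They were taken as all protein-coding genes whose symbol is a lower-case letter followed by ars- and a number, which gave 32 genes among 19985 protein-coding genes. The names cover all 20 amino acids, 11 of them with more than 1 gene and 9 with a single gene under this naming rule. The animals were L4 larvae of strain OP124, both sexes pooled, carrying unc-119(ed3) and the integrated transgene wgIs124 with an eGFP-tagged aha-1. The samples were 2 biological replicates of a single group, and the design holds no second condition. The labels give aha-1 as the antibody and do not say whether untagged AHA-1 was also precipitated. For each gene the peak with the highest signal was taken from the list called on both replicates pooled, among summits in a promoter window that began 1000 bp before a start of the gene and ended 500 bp after it.

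Aminoacyl-tRNA synthetases join each amino acid to the tRNAs that carry its anticodon, the step at which the genetic code is read into protein. They fall into class I and class II, which have unrelated catalytic folds, and separate nuclear genes often serve the cytosol and the mitochondria. AHA-1 is the worm orthologue of mammalian ARNT, a basic helix-loop-helix PAS protein that binds DNA as the partner of HIF-1, AHR-1 and other PAS proteins. Such dimers recognise a core of 5 bases, ACGTG or GCGTG.

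The pooled list and the list of each replicate held 30000 peaks, called here candidates, which the depositors describe as peaks and background together. The 530 candidates with the highest signal in the pooled list are also those that the authors kept after an irreproducible discovery rate (IDR) threshold, called here the IDR list. Signal is the authors' own value for each peak, derived with a control, and ranks follow it separately in every list. Over all candidates of the pooled list the median signal was 7.08 and the highest was 368. The lists cover 9.32% (pooled), 8.99% (replicate 1) and 9.41% (replicate 2) of the nuclear genome, so a weak peak in a window of this size may lie there by coincidence. Whole animals were used, so weak binding in many cells and strong binding in few cells cannot be told apart.

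Most synthetase genes had a candidate in the promoter window, but the peaks were of middling or low rank, and 1 gene reached the IDR list. Of the 32 genes, 21 (65.6%) had at least 1 candidate summit, against 46.8% of all protein-coding genes. An IDR summit was present at 1 synthetase gene (3.12%), cars-1, against 2.09% of all protein-coding genes, a share near the background. A peak of rank 2000 or better stood at 4 genes (12.5%), cars-1, aars-1, ears-2 and aars-2, against 6.57% of all genes. A peak of rank 5000 or better stood at 6 genes (18.8%), against 12.9%. At stricter limits the order was the reverse, with 3.12% against 3.72% at rank 1000 and 0% against 1.96% at rank 500. The median rank of the highest peak was 9423 over the 21 genes and 11091.5 over the 9352 protein-coding genes with a candidate. In the list of replicate 1 the median was worse for the synthetase genes, 12553 against 11724 for all genes. In that of replicate 2 it was close, 11411 against 11479.5. A summit stood in the window at 53.1% against 45.8% of genes in replicate 1 and 71.9% against 46.6% in replicate 2. The signal of the 21 peaks ran from 4.87 to 25.5 with a median of 8.55. The median length of the promoter windows was similar, 1509.5 bp for the synthetase genes and 1501 bp for all genes. Some synthetase genes with several starts had longer windows, up to 5204 bp at qars-1, and the shares were not adjusted for window length. All comparisons with all genes are descriptions of counts, and no test was made of the gene list.

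**Figure D1:**
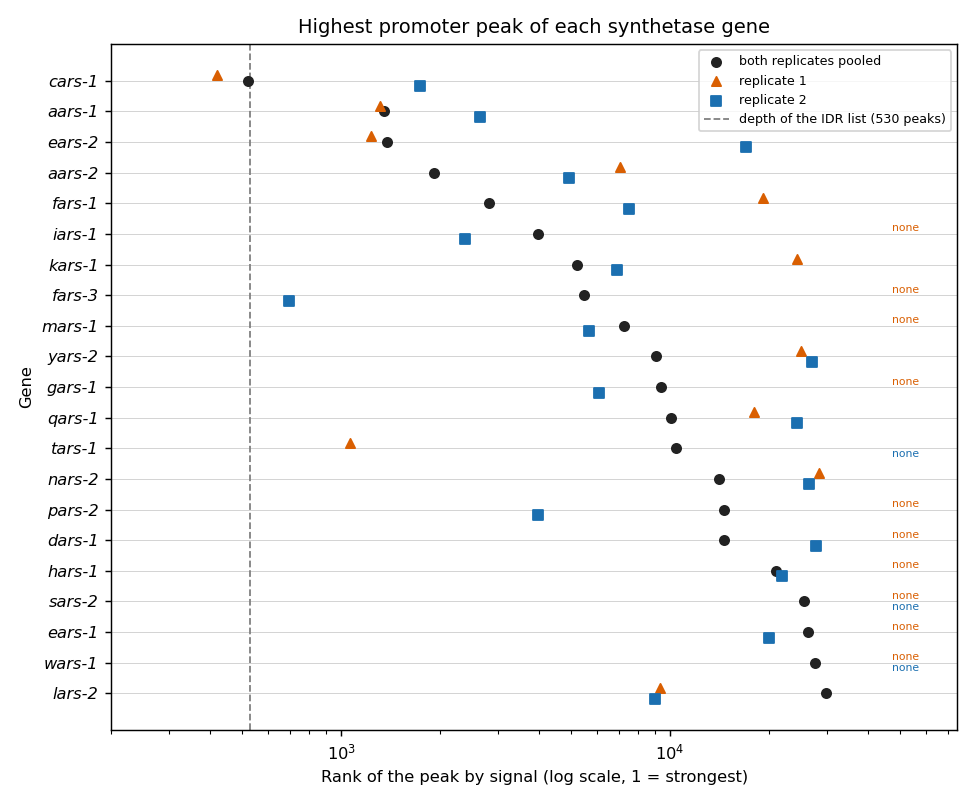
Rank of the highest promoter peak of the 21 synthetase genes with a candidate (horizontal axis, log scale, 1 is the strongest) in the pooled list (circles) and rank of the overlapping peak in replicate 1 (triangles) and replicate 2 (squares), with "none" where no peak overlapped. Only cars-1, at pooled rank 520, lies left of the dashed line at 530, and 10 of the 21 genes have a rank in both replicates.

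The cysteine gene cars-1 (WBGene00000800), a class I enzyme named cytoplasmic in RefSeq, had the strongest peak. It spanned I:2628609-2628924 (ce11) with its summit at 2628767, between protein-coding genes and 190 bp upstream of the start. Its pooled rank was 520 and its signal 25.5, just above the lowest signal in the IDR list of 25.25. The overlapping peaks ranked 418 with signal 14.5 in replicate 1 and 1742 with signal 10.5 in replicate 2. The peak thus stood inside the first 530 of replicate 1 and outside the first 530 of replicate 2. The replicate summits lay 2 and 13 bp from the pooled summit, and no other protein-coding gene had its window over it. Its −log10 q-value of 3.27 was the maximum of the pooled list, which 928 candidates share. The bases around the summit were AT-rich, with a GC content of 29.7% over 101 bp, against a median of 50.5% over the IDR peaks and 36.6% over all candidates. A single core, in the form TACGTG, had its centre 42 bp from the summit.

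Both alanine genes stood among the best ranked. The cytoplasmic enzyme gene aars-2 (WBGene00000197) had a peak of pooled rank 1923 and signal 14.9, 116 bp upstream of its start. The overlapping peaks ranked 7039 in replicate 1 and 4934 in replicate 2, with signals of 5.44 and 7.64, so its pooled rank was better than that in either replicate. Their summits differed, at -284 bp from the start in replicate 1 and -77 bp in replicate 2. Alanine was the only amino acid of the 11 with more than 1 gene for which every gene had a rank of 2000 or better.

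The 2 synthetase peaks that followed cars-1 in rank, well below the end of the IDR list, lay in short gaps between genes that point away from each other. The mitochondrial alanine gene aars-1 (WBGene00000196) came next after cars-1, with rank 1348 and signal 16.9, its summit 115 bp upstream of the start. The overlapping peaks ranked 1310 with signal 9.55 in replicate 1 and 2640 with signal 9.31 in replicate 2, so both lists placed them high. Their summits differed, at -66 bp from the start in replicate 1 and -209 bp in replicate 2. The gap of 396 bp leads to a gene on the opposite strand whose window also held the summit. The mitochondrial glutamate gene ears-2 (WBGene00001338), a class I enzyme, had rank 1384 and signal 16.7, with the summit 27 bp upstream of the start in a gap of 91 bp to uncp-18. It ranked 1235 with signal 9.72 in replicate 1 but 17054 with signal 4.54 in replicate 2. The ears-2 window held 2 further candidates, of rank 2042 at -898 bp and rank 27243 at -260 bp, the most candidates of any synthetase gene. These lay in an intron and a coding exon of uncp-18, whose start was the nearest to both.

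Summit sequences are shown for 4 genes: 2 of the 4 best-ranked peaks, 1 peak on which the replicates differed, and the peak with the E-box CACGTG. Each gives 40 bases on either side of the summit on the strand of the gene, 5′ to 3′, from the WBcel235 assembly of RefSeq, which is ce11, with every ACGTG or GCGTG of either strand in capitals.
aars-1 (II:11464572-11464652, minus strand, rank 1348): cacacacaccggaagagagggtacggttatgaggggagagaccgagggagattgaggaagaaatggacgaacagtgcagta
ears-2 (IV:390455-390535, minus strand, rank 1384): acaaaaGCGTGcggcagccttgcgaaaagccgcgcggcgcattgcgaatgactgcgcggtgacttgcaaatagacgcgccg
fars-3 (II:8464646-8464726, plus strand, rank 5484): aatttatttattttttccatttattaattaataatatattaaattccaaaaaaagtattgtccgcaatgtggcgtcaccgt
hars-1 (IV:10858743-10858823, plus strand, rank 20968): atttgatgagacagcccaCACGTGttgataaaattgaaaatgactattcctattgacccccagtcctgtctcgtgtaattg
The aars-1 sequence is purine-rich and holds no core, and that of ears-2 holds a single GCGTG whose centre lies 32 bp from the summit. The ears-2 summit was the most GC-rich of the 21, with 60.4% over 101 bp, whereas the fars-3 summit had 27.7%. At hars-1 the capitals form the palindrome CACGTG, which reads ACGTG on both strands, yet its peak ranked 20968.

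The remaining class I genes had weaker peaks. The cytoplasmic isoleucine gene iars-1 had rank 3974 and signal 11.6, with the summit at -532 bp from its start and at -279 bp from that of pges-2, a prostaglandin synthase gene. A peak of rank 2374 and signal 9.66 overlapped it in replicate 2 and none in replicate 1. The cytoplasmic methionine gene mars-1 had rank 7269 and signal 9.41, with rank 5660 and signal 7.29 in replicate 2 and no overlapping peak in replicate 1. The tyrosine gene yars-2 had rank 9099 and signal 8.67, with the summit 81 bp upstream of its nearest start and ranks of 25070 (signal 2.84) and 27120 (signal 3.38) in the replicates. The glutamine gene qars-1 had rank 10070, in a coding exon 2 bp from an internal start and 2200 bp downstream of the outermost start. The 3 others with a candidate, ears-1, wars-1 and lars-2, ranked from 26350 to 29802. In class I, 9 of 15 genes had a candidate, with a median rank of 9099.

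The class II genes other than the alanine pair had no peak of rank 2000 or better. Both subunit genes of cytosolic phenylalanyl-tRNA synthetase had a candidate that ranked better in replicate 2. For fars-1, which encodes the alpha subunit, the peak had rank 2821 and signal 13.0, and ranked 19190 with signal 3.41 in replicate 1 and 7533 with signal 6.58 in replicate 2. Its summit lay 979 bp upstream of the fars-1 start, in a UTR exon of T08B2.15 and 63 bp upstream of rbm-5, so rbm-5 was the nearest gene. For fars-3, which encodes the beta subunit, the peak had rank 5484 and signal 10.4, 162 bp upstream of the start. In replicate 2 it ranked 693 with signal 14.1, the only synthetase peak within the first 1000 of that list, and in replicate 1 no peak overlapped it. A second fars-3 candidate, of rank 5725 and signal 10.2 at -991 bp, lay in a coding exon of zyg-9 and ranked 5712 and 4024 in the replicates. The lysine gene kars-1 had rank 5209 and signal 10.6, in a coding exon 131 bp downstream of its start, with ranks of 24368 (signal 2.90) and 6884 (signal 6.82). The glycine gene gars-1 had rank 9423 in an intron, and the threonine gene tars-1 rank 10475 in an intron that also lies within kel-1. The 5 other class II genes with a candidate, nars-2, pars-2, dars-1, hars-1 and sars-2, ranked from 14156 to 25651. In class II, 12 of 17 genes had a candidate, with a median rank of 9949, so the median ranks of the classes were close.

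**Figure D2:**
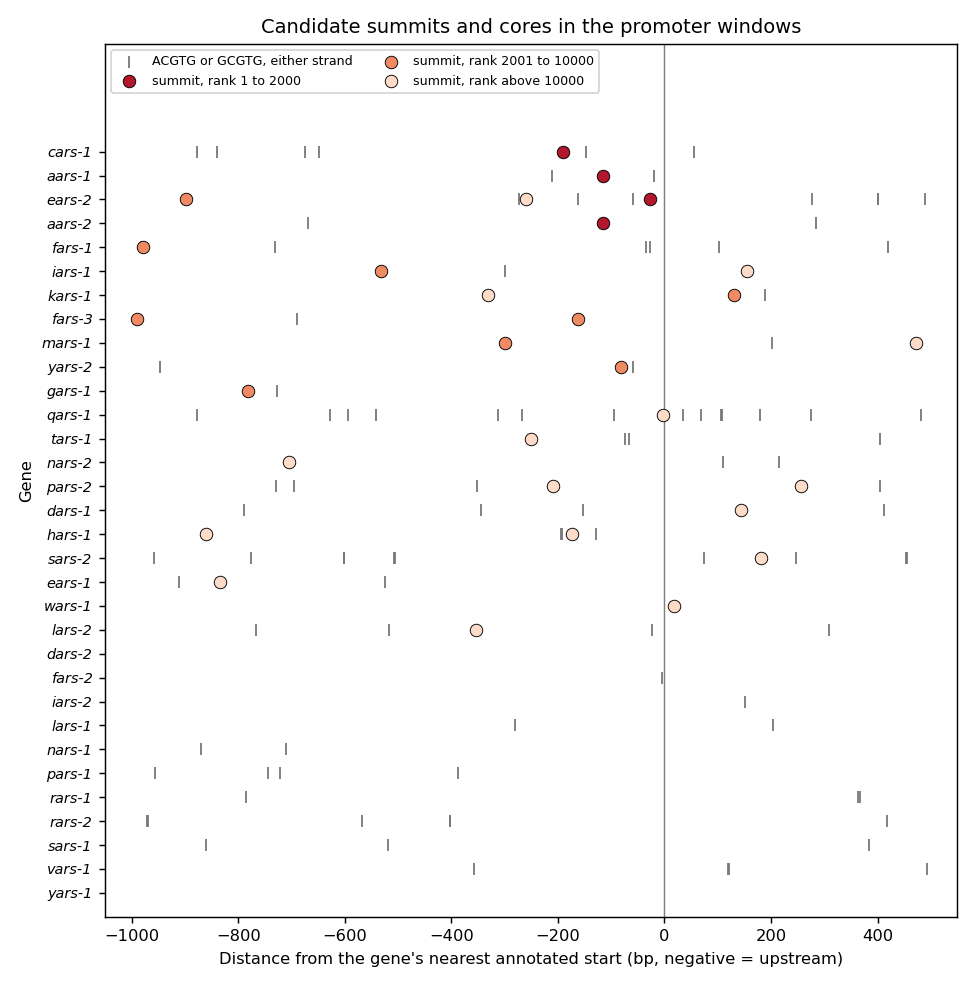
Candidate summits (circles, darker for a better rank) and cores ACGTG or GCGTG on either strand (ticks) in the promoter windows of all 32 synthetase genes, by distance from the nearest annotated start whose window holds them (bp, negative is upstream). The 4 summits of rank 2000 or better lie from 190 to 27 bp upstream of a start, and the 11 genes at the bottom have no summit.

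No candidate summit fell in the window of 11 synthetase genes: dars-2, fars-2, iars-2, lars-1, nars-1, pars-1, rars-1, rars-2, sars-1, vars-1 and yars-1. Their nearest candidate lay from 1009 bp (rars-1) to 5270 bp (fars-2) from a start, with a median of 1864 bp. In the lists of single replicates, dars-2 and vars-1 had a summit in the window in both, iars-2 in replicate 1, and lars-1, nars-1 and pars-1 in replicate 2. These peaks were weak: dars-2 ranked 20223 and 24519, vars-1 26671 and 14104, iars-2 22980, lars-1 20653, nars-1 25875 and pars-1 23694. For fars-2, rars-1, rars-2, sars-1 and yars-1 no list had a summit in the window. Arginine, with rars-1 and rars-2, and valine, with vars-1, were the 2 amino acids for which no gene had a candidate in the pooled list.

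Genes for the same amino acid often differed. Of the 11 amino acids with more than 1 gene, all genes had a candidate for 2 (alanine and glutamate), some for 8 and none for arginine. For glutamate the pair was far apart, with rank 1384 at ears-2 and 26350 at ears-1. For phenylalanine, fars-1 and fars-3 had candidates and fars-2 none. Among the 9 amino acids with 1 gene under the naming rule, 8 had a candidate. Methionine and valine, counted among these 9, each have a further ligase gene in RefSeq outside the rule. RefSeq protein names place 10 of the enzymes in the cytoplasm and 4 in mitochondria and give no compartment for 18. A candidate stood at 7 of the 10 and at 3 of the 4, aars-1, ears-2 and pars-2, and at 11 of the 18. A peak of rank 2000 or better stood at 2 of the 10 cytoplasmic genes, at 2 of the 4 mitochondrial genes and at 0 of the 18, with median ranks of 7269, 1384 and 10070. The groups are small and their difference was not tested. In mammals a complex of several synthetases includes the counterparts of ears-1, pars-1, iars-1, lars-1, mars-1, qars-1, rars-1, kars-1 and dars-1. Of these 9 genes, 6 had a candidate, none of rank 2000 or better, and their median rank was 8669.5. The synthetase genes lie on chromosomes other than X, with 9 on I, 5 on II, 6 on III, 8 on IV and 4 on V.

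The replicates were compared through the peak in each list that overlapped the pooled peak by at least 1 bp. Both replicates had such a peak at 10 of the 21 genes (47.6%), against 34.0% of all genes with a candidate. Replicate 1 had one at 11 genes (52.4%), against 55.8% of all genes with a candidate, and replicate 2 at 18 (85.7%), against 66.3%. Replicate 1 alone had one at tars-1 and replicate 2 alone at 8 genes. Neither had one at sars-2 and wars-1, and neither had one at 1119 of the 9352 protein-coding genes with a candidate. No synthetase peak ranked 1000 or better in both replicates. Of all genes with a candidate 3.23% had such a peak, and among 21 genes a count of 0 does not stand apart from that share. With a limit of 2000, cars-1 was the only one. At tars-1 the peak ranked 1063 with signal 10.2 in replicate 1, and replicate 2 had no summit anywhere in its window. At fars-3 and pars-2 the overlapping peak was in replicate 2 alone, and at pars-2 the pooled rank of 14575 stood beside rank 3982 in replicate 2. Replicate 1 had weaker summits elsewhere in both windows, of rank 5712 at fars-3 and 21751 at pars-2. At 3 genes, yars-2, qars-1 and nars-2, peaks overlapped in both lists but ranked worse than 10000 in each. The lars-2 peak had the reverse order, with ranks of 9333 and 9014 in the replicates and 29802 in the pooled list. Its replicate 2 summit lay 254 bp from the pooled summit. At nars-2, replicate 1 had a better ranked summit elsewhere in the windows, of rank 2970 and signal 7.33, 123 bp downstream of a start.

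Where the summits lay within the genes was recorded for the highest peak of each gene. Of the 21, 9 lay between protein-coding genes, 6 in introns, 5 in coding exons and 1 in a UTR exon. The 4 best ranked all lay between genes, and of the 5 in coding exons kars-1 had the best rank. The summit was upstream of the start it was measured from at 16 genes, and within 200 bp of it at 12. At 7 genes it lay more than 500 bp downstream of the outermost start and counted through an internal start or an alternative one. The synthetase gene itself had the nearest start at 17 of the 21. For fars-1, iars-1, pars-2 and ears-1 it was another gene, so those peaks may belong to rbm-5, pges-2, T27F6.6 or ZC434.3. At 11 genes the window of another protein-coding gene also held the summit. None of the 21 summits lay within 200 bp of a tRNA, snoRNA or snRNA gene.

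In the pooled list and that of replicate 2, but not that of replicate 1, peaks were recorded more often at synthetase genes whose upstream neighbour lies on the opposite strand. Of 18 such genes, 14 (77.8%) had a candidate and 4 (22.2%) a peak of rank 2000 or better, against 49.0% and 8.71% of the 9234 protein-coding genes with such a neighbour. The neighbour was taken as the protein-coding gene with the smallest gap, and overlapping genes were not excluded. For tars-1, counted here with a candidate, it was kel-1, which spans tars-1 rather than lying upstream of it. Of 14 with the upstream gene on the same strand, 7 had a candidate and 0 a peak of rank 2000 or better, against 4826 and 510 of 10734 genes. The upstream gene on the same strand ended within 200 bp at 10 of these 14, a limit chosen after the values were seen, and 4 of the 10 had a candidate, against 47.8% of all protein-coding genes with such a neighbour. Of the 4 with a wider gap 3 had a candidate, against 44.1%. Many worm genes are transcribed in operons from a promoter upstream of the first gene, but the annotation used here does not list operons, so their part was not tested.

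The core was found at few of these summits. ACGTG or GCGTG lay wholly within 50 bp of the summit at 5 of the 21 highest peaks (23.8%), against 20.3% of all genes with a candidate. Over all candidates the share was 16.4%, and it was 49.4% at the IDR peaks, 29.5% from there to rank 2000 and 14.0% beyond rank 20000. The 5 genes were cars-1, ears-2, fars-1, qars-1 and hars-1. The fars-1 core was the nearest to its summit, with its centre 3 bp away, but that summit lay nearest rbm-5. At cars-1, ears-2 and qars-1 the centres lay 42, 32 and 36 bp away, and at hars-1 the nearest lay 19 bp away. CACGTG, which contains ACGTG on both strands, occurred at hars-1 alone (1 of 21, against 2.18% of all candidates). From 250 bp upstream to 50 bp downstream of the outermost start, 6 of the 32 genes (18.8%) held a core, against 41.1% of all protein-coding genes. These were 6 of the 21 genes with a candidate and 0 of the 11 without one. The same split over all protein-coding genes is not given here, so no contrast is drawn from it. The count also rests on the outermost start alone. At fars-2, which had no candidate, a core lay at -5 bp from another start. Over the whole promoter windows 29 of 32 genes held at least 1 core, with a median of 2 and a maximum of 14 at qars-1, whose windows together span 5204 bp. A match describes the letters only and was not tested as a binding site.

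Other genes of tRNA charging, delivery and sensing showed where in this pathway strong peaks lay. Of 28 such genes, 20 (71.4%) had a candidate and 5 (17.9%) an IDR summit, against 46.8% and 2.09% of all protein-coding genes. All 5 encode elongation factors: eef-1G (rank 141), eef-1A.1 (157), eef-2 (169), eef-1A.2 (189) and eef-1B.1 (365). Charged tRNAs are carried to the ribosome by eEF1A, whose GDP is exchanged for GTP by eEF1B, the complex of the eef-1B and eef-1G products, and eEF2 moves the ribosome along. The genes eef-1A.1 and eef-1A.2 are near-identical copies, so how reads were divided between them is uncertain. In the replicates eef-1G ranked 350 and 134, eef-1A.1 159 and 330, and eef-2 196 and 510, so these stood among the first 530 of both lists. The mitochondrial counterparts of eEF1A, tufm-1 and tufm-2, had ranks of 2417 and 3827. Among genes that sense uncharged tRNA or act on its signal, gcn-2 had no candidate, gcn-1 ranked 10190, eif-2alpha 3502 and atf-4 27135. The best ranked of them was abcf-3, whose yeast counterpart is a partner of Gcn1, with rank 1548 and signal 16.1, rank 1692 in replicate 2 and no overlapping peak in replicate 1. The remaining genes of the list with a candidate ranked from 1096 (eef-1B.2) to 27199 (tsfm-1).

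Set beside other gene groups of protein synthesis, the synthetase genes had shares of strong peaks nearer to the mitochondrial than to the cytosolic ribosomal protein genes. An IDR summit was present at 2 of 70 mitochondrial ribosomal protein genes (2.86%), at 28 of 78 cytosolic ribosomal protein genes (35.9%) and at 7 of 42 translation factor genes (16.7%). The translation factor genes include the elongation factor genes with an IDR summit named above, so the counts overlap. Median ranks of the highest peaks were 7110, 1008 and 2032 in these groups, and 9423 for the synthetase genes. A peak of rank 2000 or better stood at 15.7%, 55.1% and 33.3% of their genes. The differences between groups were not tested.

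**Figure D3:**
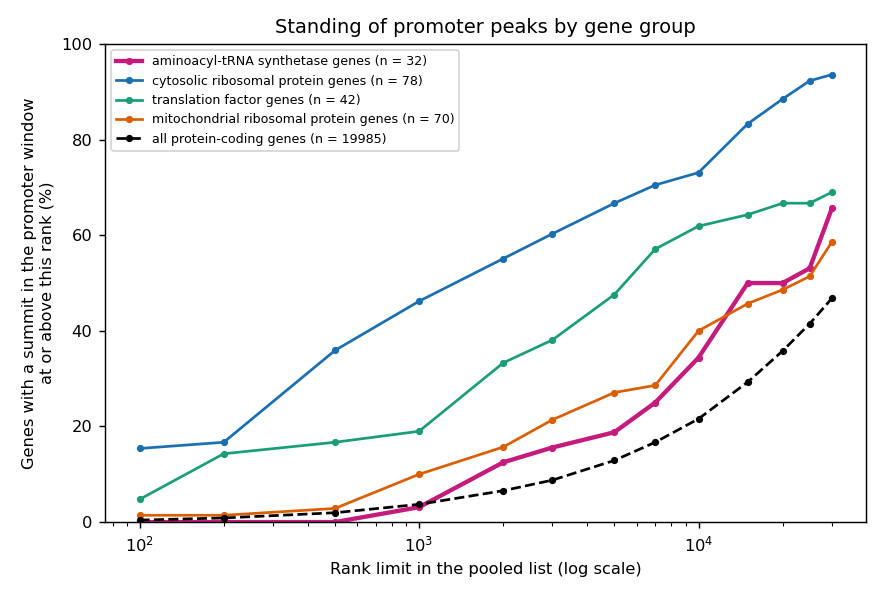
Share of genes (vertical axis, %) with a summit in the promoter window at or above a rank limit in the pooled list (horizontal axis, log scale), for 32 synthetase genes, 78 cytosolic and 70 mitochondrial ribosomal protein genes, 42 translation factor genes and all 19985 protein-coding genes (dashed). The synthetase line reaches 12.5% at rank 2000 and 65.6% at rank 30000. It lies below that of the mitochondrial ribosomal protein genes up to rank 10000 and above it from rank 15000, and below that of the cytosolic ribosomal protein genes at every limit plotted.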

How the data were processed

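Per the text deposited with the samples, the authors called peaks on ce11 from each replicate with a control and from both replicates pooled with a control. That text names the pooled list and the list of replicate 2 as inputs to the IDR list. Aligner, peak caller, settings and IDR cut-off: not given in the sources used here. In each list the signal values (column 7) are the authors' own, and their scaling is not stated. The −log10 q-values were deposited by the authors, and their maximum is shared by many peaks. No list holds read counts, and read depth is therefore unknown. The ce10 lists were not used, since no ce10 annotation was used here.

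Starts came from Ensembl release 115 (WBcel235, the same assembly as ce11), protein names and sequence from RefSeq WBcel235. Coordinates count from 1. Ranks follow signal, and a replicate peak was matched by an overlap of at least 1 bp, taking the highest signal. The members, groups and pathway list were chosen with earlier results of these data known. Genes were named by a fixed rule: members with an IDR summit, the 10 best ranked, those without a candidate, those next to the end of the IDR list, and kars-1. Other named genes were chosen after their values were seen. With 1 group, no test was made. The window search was tested on simulated data. Python 3.11.15, numpy 2.4.6, pandas 2.3.3 and matplotlib 3.10.9 were used.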

Additional observations from a re-analysis of the deposited data

How the results depend on the processing

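Only 2 replicates of 1 group were available, and the values are counts of genes; p-values and variation between cultures are therefore not given. No paired analysis was possible because the samples form 1 group. The 21 genes with a candidate became 17 to 26 under the other windows, the nearest start only and a single replicate's list (23 without replicate 1, 17 without replicate 2). The single gene with an IDR summit became 0 from the top 530 peaks of replicate 2 alone (without replicate 1), remained 1 without replicate 2, and became 0 in the stronger part of the IDR list, since cars-1 ranked 520. The median rank of 9423 became 11411 without replicate 1 and 12553 without replicate 2, and lay from 9423 to 10070 under the other windows, the nearest start and the removal of peaks near small RNA genes. The 0 genes with a rank of 1000 or better in both replicates became 1 with a limit of 2000. The 5 peaks with a core within 50 bp became 2 within 25 bp and 10 within 100 bp, since a longer window holds more matches, and were 5 without replicate 1 and 6 without replicate 2. Adding the 2 genes that RefSeq calls tRNA ligases outside the naming rule, an alternative chosen after seeing the data, gave 22 genes with a candidate, 1 IDR summit and a median rank of 9746.5.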

Other observations

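A pair of protein-coding genes that RefSeq calls tRNA ligases fell outside the naming rule, which used Ensembl symbols. Y105E8A.20, which RefSeq names as a mitochondrial methionine enzyme, lies 109 bp upstream of yars-1 on the same strand. Its candidate had rank 27476 and signal 5.14, 102 bp downstream of a start, with no overlapping peak in either replicate. The valine gene glp-4 had no candidate in its window. With vars-1, which also had none, both valine genes were without one.

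Distances from the synthetase starts to the nearest IDR peak were recorded, but the same distances over all protein-coding genes are not given here. Apart from cars-1, the IDR peak closest to a synthetase start was that of rank 48, at 6990 bp from lars-1, followed by rank 356 at 7053 bp from nars-1. Among genes without a candidate in the window, iars-2 had a candidate of rank 1315 as its nearest, 3764 bp from its start.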
